A study of Mus musculus with 10 samples.

Results

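Collagens are the structural proteins of the extracellular matrix. Each collagen molecule is a triple helix of alpha chains, in which glycine, the smallest amino acid, recurs at 1 residue in 3 so that the chains can pack together. The chains are made as procollagens in the endoplasmic reticulum, hydroxylated and folded there, cleaved outside the cell, and cross-linked into fibrils or networks. In bone, type I collagen, built from the products of Col1a1 and Col1a2, is the scaffold on which mineral is laid down by osteoblasts, and osteocytes are the cells that remain enclosed in that matrix.

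The collagen genes were taken as all genes of the deposited table that carry a collagen chain name (Col, a type number, a, a chain number) and are annotated as protein coding. This gave 44 genes of 22548 in the table, and 41 of them passed the filter on low counts, together with 16186 genes in all. The 3 genes that did not pass were Col4a6, Col6a6 and Col19a1, with 81, 18 and 20 counts summed over the 10 libraries.

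RNA was sequenced from osteocytes of C57BL/6 male mice, 8 weeks of age per the labels, with 1 library per mouse. The paper describes its mice as male or female and collected the osteocytes some weeks after the injection of myeloma cells. Whether the labeled age is that at injection or at collection is not stated. The MM group comprised 5 mice (MM 6 to MM 10) that had received murine Vk12598 myeloma cells by injection into the femur, and the No MM group comprised 5 mice (No MM 1 to No MM 5) that had received no myeloma cells. The cells were released from bone pieces by alternating collagenase and EDTA digestions, without sorting, so the preparations can hold other bone and marrow cells. The comparison asks which genes differ in osteocytes when myeloma is present.

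The depth was 31099174 to 39466332 counts per library, at which 3 counts correspond to 0.0709 to 0.114 CPM (counts per 1000000 counts of the library, its size scaled by edgeR's TMM method). Immunoglobulin genes took 26.8% of the counts in No MM 3 and 29.3% in No MM 4, against 0.647% to 3.98% in the other 8 libraries, so results that rest on these libraries are given with and without them. The summed level of 6 plasma cell markers was 9246 and 9258 CPM in No MM 3 and No MM 4, and 582 to 1263 CPM elsewhere. Of the 6, 5 lay above the other 8 libraries in both. Mzb1 did not, at 62.9 and 65.5 CPM against 17.4 to 87.6 CPM elsewhere. The osteocyte markers Dmp1 and Sost were detected in every library, at 112 to 885 CPM and at 68.3 to 995 CPM. No gene of the table passed an adjusted p-value of 0.05 in edgeR's quasi-likelihood test with Benjamini-Hochberg adjustment.

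The repeat that defines the family was read from the GENCODE M21 coding sequences (GRCm38), which were found for all 44 genes. The following stretches of 54 bases show it in the genes on which the results below turn. Capitals mark the glycine codons (GGN) of the repeat, 1 codon in 3. Glycine codons outside that spacing, ggc in Col4a1 and ggt in Col1a1, are in lower case. Each is the start of the first coding exon of at least 54 bases that begins with a glycine codon inside that gene's longest run of glycine codons spaced by 3.
Col1a1: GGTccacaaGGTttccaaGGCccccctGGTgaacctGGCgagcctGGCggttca
Col1a2: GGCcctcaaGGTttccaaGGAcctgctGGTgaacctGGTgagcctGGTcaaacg
Col2a1: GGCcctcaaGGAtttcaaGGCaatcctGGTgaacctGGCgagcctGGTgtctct
Col11a2: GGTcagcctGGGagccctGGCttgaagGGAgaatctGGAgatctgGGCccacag
Col22a1: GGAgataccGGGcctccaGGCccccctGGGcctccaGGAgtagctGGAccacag
Col4a1: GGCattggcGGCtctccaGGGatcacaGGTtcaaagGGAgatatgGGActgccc
Col18a1: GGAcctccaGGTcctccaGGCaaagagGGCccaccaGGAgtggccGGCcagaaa
Col20a1: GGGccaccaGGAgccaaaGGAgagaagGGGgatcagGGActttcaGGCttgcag
Col7a1: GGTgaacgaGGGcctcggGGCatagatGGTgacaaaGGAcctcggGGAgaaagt

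The stretches of Col1a1 (chr11:94939904-94939957, plus strand), Col1a2 (chr6:4515481-4515534, plus), Col2a1 (chr15:97996489-97996542, minus), Col11a2 (chr17:34051480-34051533, plus), Col22a1 (chr15:71857251-71857304, minus) and Col20a1 (chr2:181013236-181013289, plus) are each a whole exon of 54 bases. Those of Col4a1 (chr8:11211783-11211836, minus), Col18a1 (chr10:77077168-77077221, minus) and Col7a1 (chr9:108978821-108978874, plus) are the first 54 bases of exons of 73, 63 and 72 bases.

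The classes of collagen differed in how long the repeat runs. In the 11 fibril-forming genes, the longest run held 216 to 344 glycine codons, and 21 to 33 coding exons were exactly 54 bases long. Col1a1 had 338 glycine codons in its longest run and Col1a2 had 339. In the 10 basement membrane and network genes, the repeat was broken into 4 to 24 runs, the longest of 39 to 75 glycine codons. The 9 fibril-associated (FACIT) genes, whose products sit on the surface of fibrils, ranged from 32 glycine codons in the longest run of Col12a1, Col14a1 and Col20a1 to 113 in Col9a1, Col9a2, Col9a3 and Col22a1. In the beaded filament genes the repeat covered 7.95% to 31.9% of the codons, the rest encoding other domains.

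Type I collagen dominated the collagen counts. All collagen genes together took 3.48%, 2.65%, 0.375%, 0.177% and 4.42% of the counts in No MM 1 to No MM 5, and 5.65%, 2.37%, 1.67%, 1.56% and 2.98% in MM 6 to MM 10. The share was lowest in No MM 4 (95% Wilson interval 0.176% to 0.178%, counting error only) and highest in MM 6 (5.64% to 5.66%), and the groups overlapped. It averaged 2.22% ± 1.88 (SD, n = 5) among the No MM mice and 2.85% ± 1.67 (SD, n = 5) among the MM mice, which was a difference smaller than the spread within either group. Without No MM 3 and No MM 4, the No MM mean was 3.52% ± 0.887 (SD, n = 3), so that the sign of the difference turned. Taking immunoglobulin counts out of the total left No MM 3 at 0.512% and No MM 4 at 0.25%, still below the lowest of the other 8 libraries (1.59%).

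Col1a1 and Col1a2 supplied 82.1% to 87.9% of the collagen counts in those 8 libraries, but 53.8% in No MM 3 and 62.9% in No MM 4. Both libraries were low in collagen counts as a whole and lower still in type I collagen. In RNA from a mixed preparation, fewer cells of a type and less RNA per cell cannot be told apart.

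**Figure D1:**
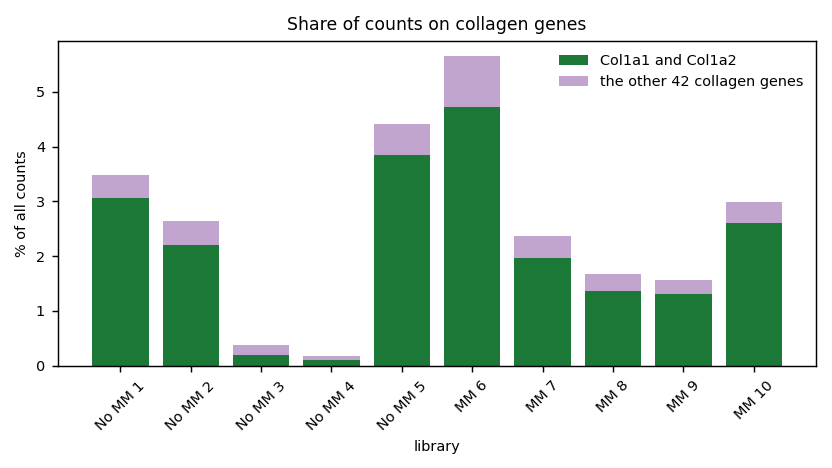
Percent of all counts on Col1a1 and Col1a2 (green) and on the other 42 collagen genes (violet) in each library, on a linear axis from 0. No MM 3 and No MM 4 stand at 0.375% and 0.177%, and the other 8 libraries at 1.56% to 5.65%.

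Col1a1 (ENSMUSG00000001506, chr11:94936224-94953042, plus strand), which encodes the alpha 1 chain of type I collagen, was measured at 16394, 9461, 1198, 693 and 15085 CPM in No MM 1 to No MM 5. In MM 6 to MM 10 it stood at 18661, 8023, 5758, 4973 and 9667 CPM. No MM 3 and No MM 4 lay below all other libraries and MM 6 above all, and the groups overlapped. The log2 fold change of MM over No MM came to 0.14 ± 0.82 (SE, adjusted p = 0.952, edgeR quasi-likelihood), and the exact permutation test over all splits of the mice gave p = 0.413 (two-sided). Without No MM 3 and No MM 4 the log2 fold change came to -0.55 ± 0.50 (SE, adjusted p = 0.705, edgeR).

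Col1a2 (ENSMUSG00000029661, chr6:4504814-4541543, plus strand), which encodes the alpha 2 chain, was measured at 19843.5, 12154, 1374, 851 and 19439 CPM in No MM 1 to No MM 5. In MM 6 to MM 10 it stood at 22961, 9658, 6475, 6517 and 13510.4 CPM. The libraries fell in nearly the same order as for Col1a1, and the log2 fold change came to 0.14 ± 0.84 (SE, adjusted p = 0.952, edgeR). Per kilobase of gene length it was the highest of the collagen genes, with a mean level of 2109 CPM per kb, followed by Col1a1 with 1516 CPM per kb.

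The 250 bases before the RefSeq start of Col1a2 (GRCm38.p6, chr6:4505368-4505617, plus strand) are shown because this gene had the highest level per length, with the motif CCAAT in capitals. The deposited coordinates start the gene earlier, at 4504814, so the window lies inside that span and is upstream by RefSeq only.
Col1a2: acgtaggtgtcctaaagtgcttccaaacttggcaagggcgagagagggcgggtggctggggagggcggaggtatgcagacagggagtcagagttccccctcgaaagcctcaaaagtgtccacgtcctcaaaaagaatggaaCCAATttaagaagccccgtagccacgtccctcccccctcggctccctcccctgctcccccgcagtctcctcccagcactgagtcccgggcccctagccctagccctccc
CCAAT on either strand was found in 13 of the 38 collagen windows of this length (34.2%), which belong to 35 of the 44 genes, and in 33.8% of all 32851 windows. The windows of the collagen genes were thus no richer in this motif than windows in general.

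The ratio between partner chains was examined in 7 pairs, and its spread differed from pair to pair. The ratio of Col1a1 to Col1a2, in CPM per kb, was 0.745, 0.702, 0.786, 0.734 and 0.70 in No MM 1 to No MM 5. In MM 6 to MM 10 it was 0.733, 0.749, 0.802, 0.688 and 0.645. It thus varied by a factor of 1.24 between the highest and the lowest library, No MM 3 and No MM 4 included, while Col1a1 itself ranged from 693 to 18661 CPM. Its average was 0.733 ± 0.0355 (SD, n = 5) among No MM mice and 0.723 ± 0.0597 (SD, n = 5) among MM mice.

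The ratio of Col4a1 to Col4a2, the chains of the common basement membrane network, varied by a factor of 1.18 and lay between 1.42 and 1.69. That of Col6a1 to Col6a2, which form beaded filaments around cells together with Col6a3, lay between 1.11 and 1.55. The ratio of Col5a1 to Col5a2, whose products control the width of type I fibrils, was 0.487, 0.327, 0.426, 0.427 and 0.418 in No MM 1 to No MM 5 and 0.294, 0.327, 0.299, 0.371 and 0.282 in MM 6 to MM 10. The MM values lay in the lower part of the range and overlapped with No MM 2. Col8a1 to Col8a2 varied by a factor of 3.22, Col11a1 to Col11a2 by 2.74, and Col9a1 to Col9a2 by 32.9, the last at levels of Col9a1 of only 0.129 to 1.81 CPM. No test was run on the ratios.

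**Figure D2:**
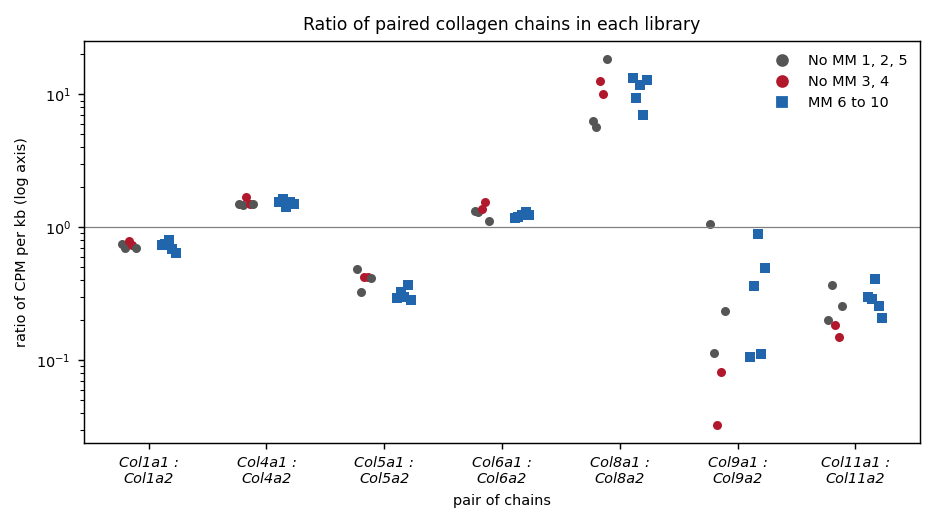
Ratio of the CPM per kb of 7 pairs of collagen chains in each library, on a log axis, with No MM 1, 2 and 5 in grey, No MM 3 and 4 in red and MM in blue. The ratios of Col1a1 to Col1a2 and of Col4a1 to Col4a2 span factors of 1.24 and 1.18, and that of Col9a1 to Col9a2 spans 32.9.

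Several of these genes lie next to each other in the genome. Col4a1 (ENSMUSG00000031502, chr8:11198423-11312826, minus strand) and Col4a2 (ENSMUSG00000031503, chr8:11312805-11449287, plus strand) are arranged head to head, and their annotated starts overlap by 22 bases. These are the bases, from RefSeq (GRCm38.p6, chr8:11312805-11312826, plus strand), which both genes transcribe from opposite strands.
Col4a1 and Col4a2: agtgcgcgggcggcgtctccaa
Col4a3 and Col4a4 are also head to head, 71 bases apart, as are Col4a5 and Col4a6, 1308 bases apart. Col6a2 and Col6a1 lie 85161 bases apart on the same strand. Neighbours did not always share a level: Col3a1 and Col5a2 lie tail to tail 24614 bases apart, and Col3a1 was highest in No MM 3 while Col5a2 was highest in MM 6.

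In No MM 3 and No MM 4 the collagen genes fell into groups. Both libraries lay below all the other 8 for 15 of the 41 tested collagen genes (36.6%), against 20.7% of all tested genes. They lay above the other 8 for 2 of 41, against 24% of all tested genes. The mean of these libraries was at least 5 times lower than that of No MM 1, 2 and 5 for 11 of 41 collagen genes (26.8%), against 4.23% of all tested genes. No test was made of these shares. The low group held 7 of the 11 fibril-forming genes, Col1a1, Col1a2, Col5a1, Col5a2, Col11a1, Col11a2 and Col24a1. It also held the FACIT genes Col9a1, Col16a1 and Col22a1, the transmembrane genes Col13a1, Col23a1 and Col25a1, as well as Col6a5 and Col15a1.

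The summed level of 6 osteoblast markers was 1559 CPM in No MM 3 and 1359 CPM in No MM 4, against 4147 to 9472 CPM in No MM 1, 2 and 5 and 2065 to 8556 CPM in MM, and 4 of the 6 were below all other libraries in both. For 6 osteocyte markers the sums were 422 and 308 CPM, against 759 to 2417 CPM and 382 to 1703 CPM, with 3 of the 6 below all others. For 5 osteoclast markers they were 517 and 421 CPM, against 2119 to 6744 CPM and 1063 to 4092 CPM, and for 7 neutrophil markers 6860 and 8063 CPM, against 24319 to 31808 CPM and 9813 to 29561 CPM. No gene of these lists was at 0 in all libraries. The part of these cell types in the collagen levels was not tested.

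Col22a1 (ENSMUSG00000079022, chr15:71795795-72034227, minus strand), a FACIT collagen known from tissue junctions, was the highest FACIT gene per length, with 19.2 CPM per kb. It was measured at 315.9, 172, 23.6, 16 and 282 CPM in No MM 1 to No MM 5 and at 362, 163, 107, 86.2 and 161 CPM in MM 6 to MM 10. No MM 3 and No MM 4 were lowest and MM 6 highest, as for Col1a1. Its log2 fold change came to 0.12 ± 0.75 (SE, adjusted p = 0.954, edgeR).

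Col13a1, a collagen anchored in the cell membrane and the highest of its class with 16.8 CPM per kb, was measured at 77.7, 54.6, 5.69, 5.95 and 125 CPM in No MM 1 to No MM 5. In MM 6 to MM 10 it stood at 113, 47.6, 28.3, 25.7 and 46.3 CPM. Col15a1, a multiplexin of basement membrane zones and the highest of its class with 4.59 CPM per kb, was measured at 32.8, 27.8, 15.5, 6.71 and 30.7 CPM in No MM and at 42, 22.7, 20.1, 16 and 22.9 CPM in MM. Both were lowest in No MM 3 and No MM 4, with a smaller gap for Col15a1.

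Col2a1 and Col11a2, which are best known from cartilage, were low in No MM 3 and No MM 4 and highest in MM 6, as type I collagen was. Their correlation with Col1a1 (Pearson's r of log2 CPM, each group's mean taken out) was 0.87 and 0.98. Without No MM 3 and No MM 4 it was 0.58 for Col2a1 and 0.95 for Col11a2, so the likeness of Col2a1 rested largely on these libraries. Col2a1 (chr15:97975602-98004695, minus strand) was measured at 954, 700.1, 121, 43.3 and 681 CPM in No MM 1 to No MM 5 and at 1346, 510.4, 279.6, 249 and 108 CPM in MM 6 to MM 10. It was low in No MM 3 and No MM 4, and in MM 10 as well. Col11a2 (chr17:34039437-34066685, plus strand) was measured at 941, 777, 102, 114 and 1063 CPM in No MM and at 1773, 768, 594, 437 and 737 CPM in MM.

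The 7 chondrocyte markers summed to 10.9 to 114 CPM in No MM and to 5.13 to 161 CPM in MM, and for none of them did No MM 3 and No MM 4 both lie below the other libraries. Chad, the highest of them per length, was measured at 16.8, 86.6, 58.9, 8.17 and 39 CPM in No MM 1 to No MM 5 and at 108, 38.6, 3.47, 72.7 and 10.5 CPM in MM 6 to MM 10. Acan, which encodes the core protein aggrecan, was at 0.876 CPM in No MM 1, where Col2a1 stood at 954 CPM. In No MM 3 Acan was at 17.4 CPM, where Col2a1 stood at 121 CPM. Both genes were highest in MM 6 (Acan 30 CPM, Col2a1 1346 CPM), and in No MM 4 they stood at 1.42 and 43.3 CPM. The part of chondrocytes in the levels of Col2a1 and Col11a2 was not tested. Matn1 did not exceed 0.221 CPM in any library. Col9a1, whose product decorates type II collagen fibrils in cartilage, stayed between 0.129 and 1.81 CPM, and Col10a1 of hypertrophic cartilage between 0.29 and 11.7 CPM. Col9a1 was low in No MM 3 and No MM 4 and highest in MM 6, as type I collagen was. Both Col2a1 and Col11a2 were chosen after their values were seen. Their log2 fold changes were -0.00 and 0.52, with adjusted p = 0.999 and 0.736 (edgeR), and -0.66 and -0.12 without No MM 3 and No MM 4.

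A second group was not low in No MM 3 and No MM 4 together. Col3a1, which is abundant in vessels and soft connective tissue, was measured at 82, 233, 393, 72.9 and 67.9 CPM in No MM 1 to No MM 5 and at 186, 75.8, 85.1, 103 and 112 CPM in MM 6 to MM 10. It was highest in No MM 3, where Col1a1 was lower than in all libraries but No MM 4. Col4a1, Col4a2, Col5a3, Col6a4, Col18a1 and Col28a1 were also highest in No MM 3, which with Col3a1 makes 7 of the 41 tested collagen genes. The share of all tested genes highest in No MM 3 was not computed, so this count has no background and is not read as particular to collagen genes. No MM 3 and No MM 4 both lay above the other 8 libraries for 24% of all tested genes. No MM 4 was not high for all of these 7 genes, with Col28a1 lowest there (0.363 CPM) and Col6a4 at 1.81 CPM, so their pattern rests on No MM 3. The summed level of 5 endothelial markers was 359.6 CPM in No MM 3 and 239 CPM in No MM 4. It was 275 to 467 CPM in No MM 1, 2 and 5 and 238 to 378 CPM in MM. The part of endothelial cells in the levels of these genes was not tested.

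For Col20a1 and Col7a1, No MM 3 and No MM 4 were high where they were low for type I collagen, a contrast that rests on these libraries. Col20a1 (ENSMUSG00000016356, chr2:180986535-181017540, plus strand), a FACIT collagen with a short triple helix, was measured at 0.686, 2.36, 32.6, 50.05 and 3.28 CPM in No MM 1 to No MM 5 and at 3.93, 3.22, 2.84, 4.27 and 4.03 CPM in MM 6 to MM 10. Col7a1 (ENSMUSG00000025650, chr9:108953586-108984875, plus strand), the collagen of anchoring fibrils beneath the epidermis, was measured at 0.267, 0.704, 13.8, 23.2 and 1.94 CPM in No MM and at 5.9, 1.84, 2.24, 3.61 and 3.54 CPM in MM. For both genes the immunoglobulin-rich libraries lay above all the other 8, and No MM 1 lay below all.

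A gene on the same strand, 9230112E08Rik, shares 741 bases with Col20a1. It had 362 and 409 counts in No MM 3 and No MM 4, and 78 to 321 counts in the other 8 libraries, against 1010 and 1379 counts of Col20a1 in the former and 18 to 155 in the latter. How reads in the shared bases were assigned is not given in the sources used here. The part of plasma cells in the levels of Col20a1 and Col7a1 was not tested.

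**Figure D3:**
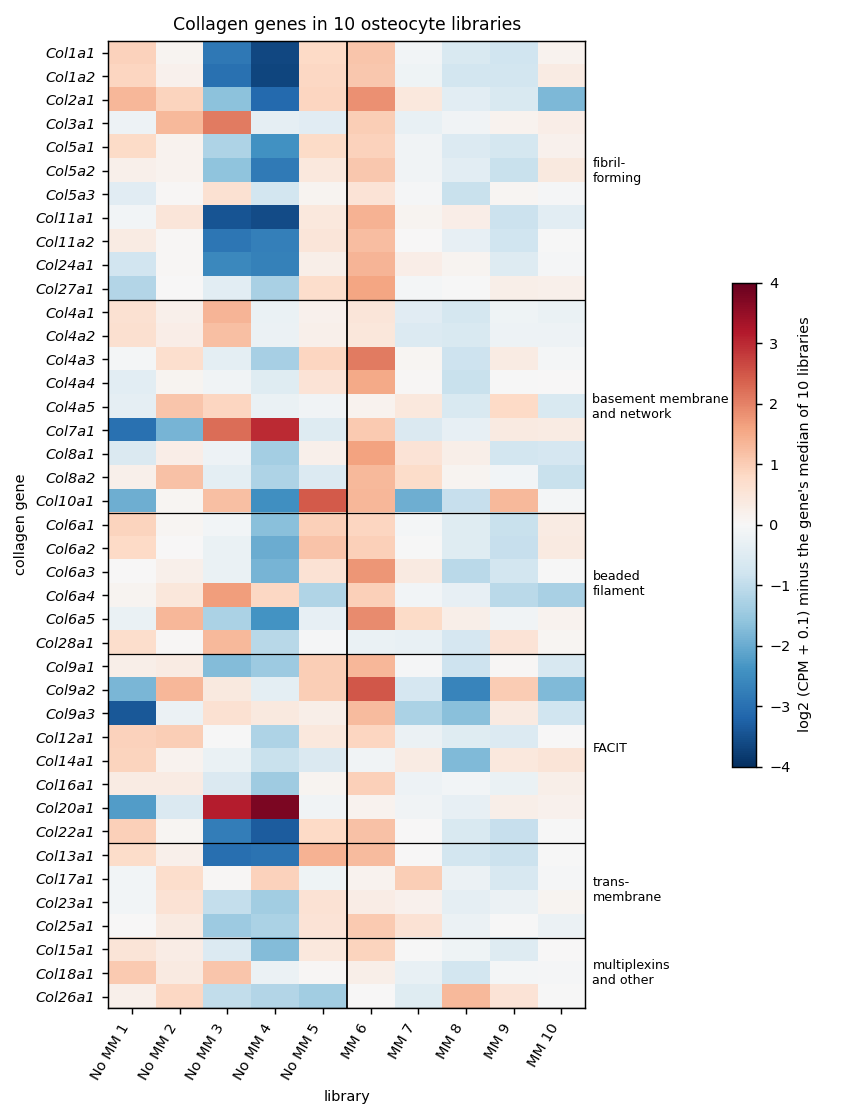
Level of the 41 tested collagen genes in each library, as log2 (CPM + 0.1) minus the median of that gene over 10 libraries, ordered by class, with red above and blue below the median. Most fibril-forming genes are blue in No MM 3 and No MM 4, while Col20a1 and Col7a1 are red there, and MM 6 is red for most genes.

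Among the MM libraries, MM 6 stood apart. It was the highest of the 5 MM libraries for 35 of the 41 tested collagen genes (85.4%), against 33.5% of all tested genes, and the highest of all 10 libraries for 22 of 41 (53.7%), against 13.6%. Genes of all classes took part, with Col6a3 at 485 CPM against 67.2 to 182 CPM in the other MM libraries and Col8a1 at 306 CPM against 60.2 to 146 CPM. In MM 6 the summed level of 7 neutrophil markers was 9813 CPM, against 22275 to 29561 CPM in MM 7 to MM 10. That of 5 skeletal muscle markers was 4238 CPM, against 458 to 1429 CPM. MM 6 also had the highest sum of MM for 5 tendon and fibroblast markers (218 CPM, against 80.9 to 131 CPM), 5 osteoclast markers (4092 CPM, against 1063 to 2113 CPM) and 5 endothelial markers (378 CPM, against 238 to 282 CPM). The same held for 6 osteoblast markers (8556 CPM, against 2065 to 6145 CPM), 6 osteocyte markers (1703 CPM, against 382 to 1516 CPM) and 7 chondrocyte markers (161 CPM, against 5.13 to 98.6 CPM). Not every marker in these higher sums was highest of MM in MM 6. The exceptions were Sost (265 CPM, against 501 CPM in MM 7), Mepe (251 CPM, against 359 CPM in MM 9) and Fgf23 of the osteocyte list. Spp1 (3267 CPM, against 4724 CPM in MM 10), Sox9, Matn1, Scx and Pecam1 were the exceptions of the other lists. The part of these cell types in the collagen levels in MM 6 was not tested.

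**Figure D4:**
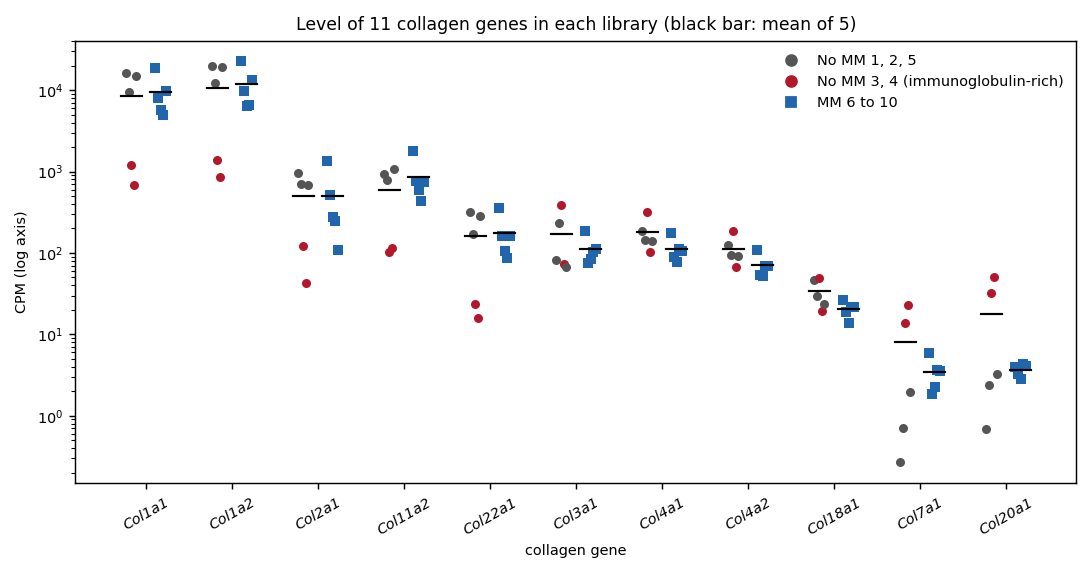
Level of 11 collagen genes in each library in CPM on a log axis, with No MM 1, 2 and 5 in grey, No MM 3 and 4 in red, MM in blue and the mean of each group as a black bar. For Col1a1, Col1a2, Col11a2 and Col22a1 the red points lie below all others, and for Col7a1 and Col20a1 above all others.

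Compared with No MM, no collagen gene passed the test in MM. With edgeR, none of the 41 tested genes reached an adjusted p-value of 0.05, as 0% of all tested genes did, and the lowest adjusted p-value of a collagen gene was 0.325. DESeq2 called none of 41 either, against 1.34% of all genes to which it gave an adjusted p-value. At an unadjusted p under 0.05 in edgeR, no collagen gene was higher in MM, against 3.81% of all tested genes, and 3 of 41 (7.32%) were lower, against 10.3% of all tested genes. Both shares lay near the background. No collagen gene had all MM values above all No MM values (0.729% of all tested genes) or below them (0.68%).

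The fold changes of the collagen genes were spread about 0, with 25 above and 16 below and a median log2 fold change of 0.08, against -0.03 for all tested genes. By class, the median log2 fold change was 0.14 for 11 fibril-forming genes and -0.30 for 9 basement membrane and network genes. It was -0.18 for 6 beaded filament genes, 0.09 for 8 FACIT genes, 0.02 for 4 transmembrane genes and 0.12 for 3 multiplexins and others. Without No MM 3 and No MM 4 the medians were, in the same order, -0.12, -0.05, -0.25, -0.16, -0.23 and -0.32, so that 4 of the 6 turned sign.

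The 3 genes with an unadjusted p under 0.05 were Col18a1, Col20a1 and Col4a2. Col18a1 (ENSMUSG00000001435, chr10:77052178-77166548, minus strand), a basement membrane collagen from which endostatin is released, was measured at 46.9, 29.2, 49.7, 19.2 and 23.6 CPM in No MM 1 to No MM 5. In MM 6 to MM 10 it stood at 26.6, 18.6, 13.7, 21.7 and 22 CPM. It averaged 33.7 ± 13.8 CPM (SD, n = 5) among No MM mice and 20.5 ± 4.78 CPM (SD, n = 5) among MM mice, and the groups overlapped. Its log2 fold change came to -0.72 ± 0.29 (SE, adjusted p = 0.325, edgeR), and the exact permutation test gave p = 0.0873 (two-sided).

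The difference of Col18a1 was as large without No MM 3 and No MM 4, at -0.72 ± 0.28 (SE, adjusted p = 0.643, edgeR). Col18a1 shares 8825 bases with Slc19a1 on the opposite strand, which had 493 to 1029 counts per library against 529 to 1538 counts of Col18a1. The library kit keeps strand, and whether counting used it is not given in the sources used here.

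Col4a2, an alpha chain of the basement membrane network, was measured at 124, 95.4, 185, 67.3 and 91.2 CPM in No MM 1 to No MM 5 and at 109, 54.2, 52.6, 69.4 and 68.6 CPM in MM 6 to MM 10. Its partner Col4a1 was measured at 189, 145, 319, 103 and 140.2 CPM in No MM and at 173.6, 90.2, 76.9, 111 and 105 CPM in MM. In both genes, MM 7 to MM 10 lay below all No MM libraries but No MM 4, and MM 6 lay within the No MM range. The log2 fold change came to -0.67 ± 0.29 (SE) for Col4a2 and -0.69 ± 0.32 (SE) for Col4a1 (adjusted p = 0.343 and 0.362, edgeR). The exact permutation test gave p = 0.0794 for Col4a2 and p = 0.0952 for Col4a1 (two-sided).

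For Col20a1 the log2 fold change came to -2.28 ± 0.95 (SE, adjusted p = 0.333, edgeR), and it rested on No MM 3 and No MM 4. Without them it turned to 0.77 ± 0.45 (SE, adjusted p = 0.643, edgeR). Col6a4, a beaded filament chain at low level, was measured at 1.07, 1.38, 3.36, 1.81 and 0.368 CPM in No MM 1 to No MM 5 and at 1.99, 0.892, 0.756, 0.413 and 0.338 CPM in MM 6 to MM 10. Its log2 fold change came to -0.86 ± 0.62 (SE, adjusted p = 0.527, edgeR), and was -0.39 without No MM 3 and -0.11 without No MM 3 and No MM 4.

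In the higher direction the 5 genes with the smallest p-values were Col24a1, Col27a1, Col8a1, Col6a5 and Col26a1, with adjusted p-values from 0.426 to 0.580 (edgeR). Col24a1, a minor fibril-forming collagen of bone and cornea, was measured at 15.8, 27.9, 4.43, 4.1 and 31.5 CPM in No MM 1 to No MM 5 and at 69.3, 32.4, 29.4, 18.7 and 26.1 CPM in MM 6 to MM 10. Its log2 fold change came to 1.07 ± 0.59 (SE), and without No MM 3 and No MM 4 it was 0.48 ± 0.42 (SE), and without MM 6 it was 0.67. Col27a1, a related fibril-forming collagen, was measured at 8.38, 19.1, 14.1, 7.59 and 31.2 CPM in No MM and at 56.8, 18.1, 18.8, 22.2 and 21.8 CPM in MM. MM 6 lay far above the other MM values, which overlapped with No MM, and the log2 fold change of 0.78 was 0.33 without MM 6.

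Col8a1, the highest network collagen per length with 22.1 CPM per kb, was measured at 68, 120.3, 87.9, 39.2 and 115.9 CPM in No MM 1 to No MM 5 and at 306, 146, 119, 60.2 and 64 CPM in MM 6 to MM 10. Its log2 fold change came to 0.69 ± 0.46 (SE), and was 0.17 without MM 6 and 0.44 without No MM 3 and No MM 4. Col6a5 ranged from 0.0363 to 1.69 CPM in No MM and from 0.551 to 2.54 CPM in MM, and Col26a1 from 0.172 to 1.15 CPM and from 0.405 to 1.63 CPM, levels at which few reads were counted. The log2 fold change of Col6a5, 0.94, was 0.40 without MM 6 and 0.32 without No MM 3 and No MM 4, and that of Col26a1, 0.73, was 0.34 without MM 8 and 0.28 without No MM 3 and No MM 4. Col6a1, the highest beaded filament gene per length with 44.2 CPM per kb, was measured at 294, 169, 146, 49.8 and 309.6 CPM in No MM 1 to No MM 5. In MM 6 to MM 10 it stood at 291.5, 149.9, 114, 86.2 and 200 CPM, and its log2 fold change came to -0.20 ± 0.47 (SE), and was -0.63 without No MM 3 and No MM 4.

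**Figure D5:**
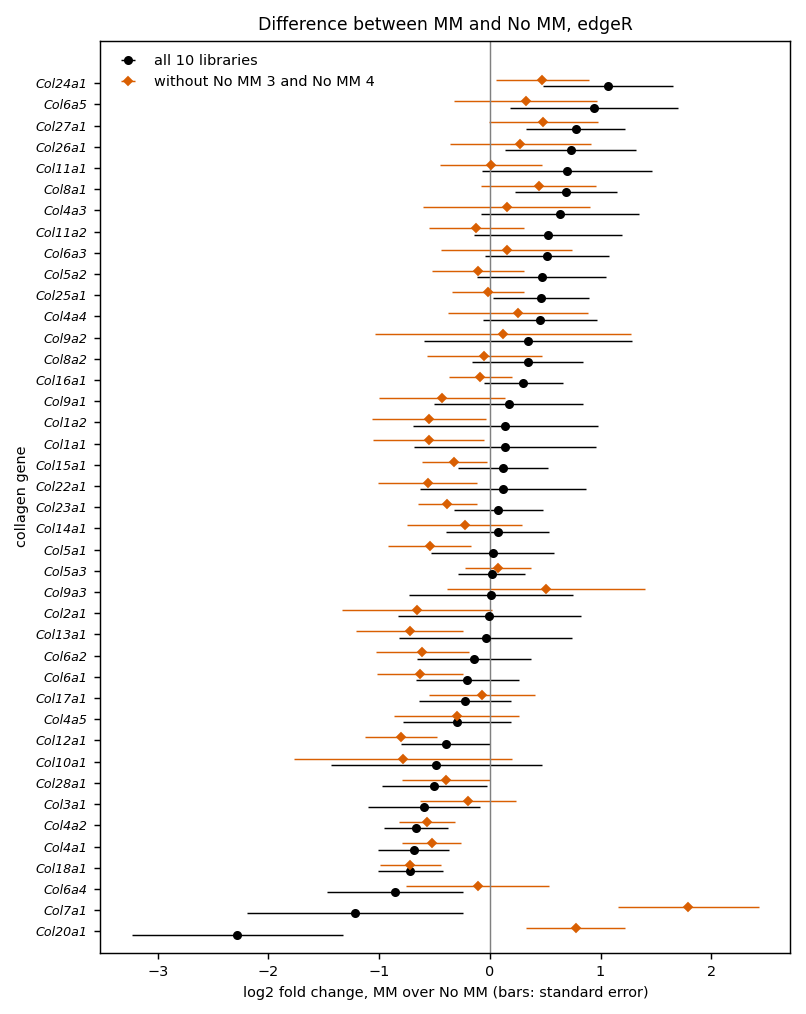
Log2 fold change of MM over No MM in edgeR with its standard error for the 41 tested collagen genes, over all 10 libraries (black) and without No MM 3 and No MM 4 (orange). Col18a1 stays at -0.72 in both, Col1a1 moves from 0.14 to -0.55, Col7a1 from -1.21 to 1.79 and Col20a1 from -2.28 to 0.77.

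Without No MM 3 and No MM 4, 42 collagen genes could be tested and none passed, with a lowest adjusted p-value of 0.643 (edgeR), as 0% of all 16600 genes did. The median log2 fold change was -0.11, against -0.02 for all tested genes, with 15 collagen genes above 0 and 27 below. At an unadjusted p under 0.05, 1 of 42 genes (2.38%) was higher in MM, against 2.51% of all tested genes, and 2 of 42 (4.76%) were lower, against 3.37%. The higher gene was Col7a1, at a log2 fold change of 1.79 ± 0.64 (SE). The lower genes were Col18a1 and Col12a1, a FACIT collagen on type I fibrils, the latter at -0.81 ± 0.32 (SE). Col12a1 was measured at 136, 142 and 96.5 CPM in No MM 1, 2 and 5 and at 129, 60.6, 51.3, 48.9 and 71.4 CPM in MM 6 to MM 10, so that the groups overlapped through MM 6.

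None of the genes that handle collagen passed the adjusted threshold either (edgeR). Of 19 genes for modification and folding, all tested, 3 were lower in MM at an unadjusted p under 0.05 (10.3% of all tested genes were) and none was higher (3.81% were). These were P4ha1 and P4hb, the subunits of prolyl 4-hydroxylase, and Ppib, a proline isomerase of the collagen 3-hydroxylation complex, with log2 fold changes of -0.48, -0.78 and -0.89 (adjusted p = 0.352, 0.315 and 0.315, edgeR). P4hb was measured at 1161, 737, 1464, 1197 and 718 CPM in No MM 1 to No MM 5 and at 707, 691, 623, 509 and 547 CPM in MM 6 to MM 10. Ppib was measured at 503, 319, 695, 531 and 268 CPM in No MM and at 268, 268.6, 249, 223 and 238 CPM in MM. Both were highest in No MM 3 and No MM 4, with No MM 1 close to No MM 4. All plasma cell markers but Mzb1 were also highest in No MM 3 and No MM 4, and the part of plasma cells in these levels was not tested. Without No MM 3 and No MM 4 the log2 fold changes of P4hb and Ppib were -0.53 and -0.57. P4ha1 was measured at 107, 84.6, 86.7, 67.1 and 124 CPM in No MM and at 95.4, 63.6, 53.2, 53.2 and 72.1 CPM in MM, with a log2 fold change of -0.66 without No MM 3 and No MM 4. All MM values of P4hb lay below all its No MM values, as for 0.68% of all tested genes, while Ppib and P4ha1 overlapped. The exact permutation test gave p = 0.00794 for P4hb, the smallest it can give, 0.0238 for Ppib and 0.0714 for P4ha1 (two-sided, unadjusted).

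In the other lists of collagen handling, no gene had an unadjusted p under 0.05 over all 10 libraries (edgeR). These were 5 genes of collagen export and its transcription in osteoblasts (median log2 fold change -0.24), 13 of procollagen cleavage and cross-linking (0.23) and 9 of collagen breakdown (-0.14). They also comprised 10 fibril-binding matrix proteins (-0.02) and 9 collagen receptors (0.19). Without No MM 3 and No MM 4 these medians were -0.10, -0.24, -0.41, -0.30 and -0.11, those of cleavage and of receptors turning sign. In that fit Mmp2, of the breakdown list, had an unadjusted p of 0.0488 at a log2 fold change of -0.87 (adjusted p = 0.643, edgeR). Of all tested genes, 3.37% were lower at an unadjusted p under 0.05 there. The highest gene per length was Ppib in the first list and Ctage5 (Mia2), a cargo receptor for procollagen export, in that of export. It was Bmp1, the C-propeptide protease, for cleavage, Ctsk, the protease of osteoclasts, for breakdown, Sparc for matrix proteins and Itgb1 for receptors. Ctsk was measured at 3634, 1424, 275, 199.5 and 3215 CPM in No MM 1 to No MM 5 and at 2695, 1337, 616, 869 and 1821 CPM in MM 6 to MM 10. Sparc stood at 11266, 5457, 1078, 543 and 11161 CPM and at 9831, 4515, 2858, 3016 and 6788 CPM, with No MM 3 and No MM 4 lowest as for type I collagen.

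The genes whose pattern was most like that of Col1a1 were sought over the 10 libraries among all tested genes, with each group's mean taken out of log2 CPM. The measure was Pearson's r, given as a description without a test. The first was Col1a2 (0.998) and the second Col22a1 (0.998), followed by Mfsd7c (0.993), Sparc (0.992), Gxylt2 (0.992), Pdia5 (0.992), Atp6v1a (0.991), Atp6v1g1 (0.990), Slc16a7 (0.990) and Sh3pxd2b (0.988). No MM 3 and No MM 4 lie far from the others and share their immunoglobulin content. Over the other 8 libraries the values were 0.988 for Col1a2, 0.991 for Col22a1 and 0.964 for Sparc, and the gene most like Col1a1 was Col5a1 (0.997). Over the 10 libraries, 11 of the other 40 tested collagen genes were above 0.9, against 4.24% of all genes, and the lowest values were those of Col20a1 (-0.89) and Col7a1 (-0.81), which became -0.09 and 0.30 over the other 8 libraries. Over the 8 libraries, 9 of 40 were above 0.9, against 1.88% of all genes.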

How the data were processed

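Osteocyte RNA of 5 No MM and 5 MM mice was turned into libraries by TruSeq Stranded Total RNA chemistry and read from both ends (76 bp). The submitters' processing notes name FastQC 0.11.5 and STAR. The counting program, genome build and annotation are not given in the sources used here, and 41 of the 44 collagen genes have the coordinates of GENCODE M21 (GRCm38). The authors deposited read counts per gene, which were used here, and the gene length in bases. The deposited FPKM values, the deposited signal (counts divided by a size factor), and the authors' own log2 fold changes and p-values were not used.

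Counts were analyzed in R 4.3.3 with edgeR 4.0.16 over the whole table (filterByExpr, TMM, glmQLFit and glmQLFTest, no covariates), with Benjamini-Hochberg adjustment over all tested genes. Levels are TMM-scaled CPM, and log2 CPM used a prior count of 2. CPM per kb used the deposited gene length. Single genes were also compared by an exact permutation test over all splits, two-sided, whose smallest p-value is 0.00794. P-values set the difference between the groups against the spread between mice, 1 library each. Alternatives were DESeq2 1.42.0, other size factors and filters, immunoglobulin genes (326) left out, libraries No MM 3 and No MM 4 left out, and each mouse left out in turn. DESeq2 without No MM 3 and No MM 4 was added after seeing the data. The tests were run on simulated counts first.

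The collagen genes, the lists and the marker genes were chosen with earlier results of these data known. Values in every library are given for Col1a1, Col1a2, the 5 genes with the smallest p in each direction, and the highest gene per length of each class. Genes of collagen handling were named for an unadjusted p under 0.05 or the highest level per length. Col2a1, Col3a1, Col7a1, Col11a2 and Col12a1 were added after their values were seen. Sequences are from GENCODE M21 and RefSeq (GRCm38.p6), and the RefSeq table held no window for Col1a1.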

Additional observations from a re-analysis of the deposited data

Results flagged for a closer look

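In Col27a1, the library MM 6 stood at 5.83 on the log2 CPM scale (56.8 CPM), and the other 4 MM libraries lay between 4.18 and 4.48 (18.1 to 22.2 CPM). It is listed because its gap to the next library took up 0.821 of the range of the MM group, above Dixon's critical value of 0.71 for 5 samples. Chance gives such a gap in about 1 group in 20, which is 2.4 of the 48 groups of values examined. MM 6 also had the lowest summed level of neutrophil markers in MM (9813 CPM), and the cause was not tested.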

How the results depend on the processing

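No collagen gene was called at an adjusted p under 0.05 in any of the 17 alternatives or in DESeq2 without No MM 3 and No MM 4. Across all alternatives, the adjusted p-values of the 21 named genes were at least 0.133 (edgeR and DESeq2). The number of collagen genes lower in MM at an unadjusted p under 0.05 was 3. It ranged from 0 to 4 when 1 mouse was left out, with 0 without MM 7, MM 8 or No MM 3 and 1 without MM 9, MM 10 or No MM 1. It was 1 where at least a 2-fold change was also required. The number higher in MM was 0, with 1 without No MM 3 and No MM 4, and ranged from 0 to 2 when 1 mouse was left out (2 without No MM 2 or No MM 5). The median log2 fold change ranged from -0.30 without MM 6 to 0.33 without No MM 5. The difference in collagen share ranged from -0.0749 without MM 6 to 1.18 without No MM 5, and was -0.67 without No MM 3 and No MM 4.

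Of the 21 named genes, 11 kept their direction in every alternative that could be fitted, Col18a1, Col4a1, Col4a2 and Col24a1 among them. Leaving out No MM 3 and No MM 4 turned the log2 fold change of Col1a1 (-0.55), Col1a2 (-0.55), Col22a1 (-0.56), Col15a1 (-0.32), Col11a2 (-0.12), Col20a1 (0.77) and Col7a1 (1.79). Leaving out MM 6 turned Col1a1 (-0.27), Col1a2 (-0.25), Col22a1 (-0.32) and Col15a1 (-0.16). Without No MM 3 the values were -0.15 for Col1a1, -0.15 for Col1a2 and -0.16 for Col22a1. Without No MM 4 they were -0.16, -0.16 and -0.17, and -0.11 for Col15a1. Col13a1 turned without MM 8 (0.12), MM 9 (0.13), No MM 1 (0.13) and No MM 5 (0.54), and Col6a1 without No MM 5 (0.029). Col2a1, at -0.00, turned with DESeq2 (0.014), RLE factors (0.017), at least 10 counts in every library (0.020) and upper quartile factors (0.048). It also turned without MM 10 (0.25), MM 8 (0.14), MM 9 (0.16), No MM 1 (0.37), No MM 2 (0.13) and No MM 5 (0.13). With 1 mouse left out, the highest values were those without No MM 1 for Col1a1 (0.51), Col1a2 (0.48), Col22a1 (0.51) and Col15a1 (0.29), and the lowest those without MM 6 for Col6a1 (-0.50), Col13a1 (-0.54) and Col2a1 (-0.80). The cause was not tested.

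No paired analysis was possible because each mouse carries its own number, 1 to 5 without and 6 to 10 with myeloma, and the groups share none. With 5 mice a group and Col1a1 ranging from 693 to 18661 CPM, changes in the type I pattern were not detectable at the sizes seen here. Fewer than 3 counts (0.0709 to 0.114 CPM) were taken as not detectable. Intervals cover counting error only.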
